A study of Rattus norvegicus with 6 samples.

Results

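Interferon-stimulated genes were followed here in the hearts of rats given ISO or saline. The set was defined by name and held 9 of the 32883 named genes in the count table, namely Irf7, Isg15, Usp18, Ifit1, Ifit3, Mx1, Mx2, Oas1a and Rsad2. Each name occurred in a single row. The ISO group comprised 3 wild-type male Sprague–Dawley rats, an outbred strain, aged 8 weeks, given ISO subcutaneously, 1.5 mg/kg/day, for 7 days. The saline group comprised 3 rats of the same strain, sex, age and genotype, which received saline in the same volume over the same 7 days. The labels write only ISO, taken here to be isoproterenol, a beta-adrenergic agonist used to produce cardiac hypertrophy and fibrosis. RNA of the heart was sequenced, 1 library per rat, and reads were counted per gene.

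Interferon-stimulated genes are the antiviral genes that cells switch on when an interferon binds its receptor. Type I interferons signal through the receptor chains IFNAR1 and IFNAR2 and the kinases JAK1 and TYK2 to transcription factors that include STAT2 and IRF9. These act at the interferon-stimulated response element in the promoters of their targets. IRF7 is both a target and a driver of the response, since it switches on interferon genes themselves. In the heart, macrophages, endothelial cells, fibroblasts and cardiomyocytes can all express such genes, so a bulk library sums over them. Fewer cells of a type and less RNA per cell cannot be told apart in these data.

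The response element is shown for the members whose promoters could be matched. It is the element at which the pathway acts on its targets, and it was not used to choose the genes. Promoters were taken from RefSeq on build GRCr8, which is not stated to be the build behind the counts, and 5 of the 9 genes were matched by symbol. Isg15, Usp18, Ifit1 and Mx2 were not matched. The search covered the 250 bases before each start for a core of the element, GAAA, then 2 bases of any kind, then GAAA, or for the same letters on the other strand, TTTC, 2 bases of any kind and TTTC. Each line gives the gene's own strand from 5′ to 3′, with matches in capitals, for Irf7 (chr1:205800024-205800273, minus strand), Ifit3 (chr1:241527076-241527325, plus strand), Oas1a (chr12:41330216-41330465, plus strand), Rsad2 (chr6:48788121-48788370, minus strand) and Mx1 (chr11:50294607-50294856, minus strand).
Irf7: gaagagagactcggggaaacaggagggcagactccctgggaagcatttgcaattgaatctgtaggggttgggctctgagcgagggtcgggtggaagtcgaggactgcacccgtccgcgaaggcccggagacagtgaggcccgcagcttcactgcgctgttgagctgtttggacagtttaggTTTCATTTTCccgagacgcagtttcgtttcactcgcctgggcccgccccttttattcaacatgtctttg
Ifit3: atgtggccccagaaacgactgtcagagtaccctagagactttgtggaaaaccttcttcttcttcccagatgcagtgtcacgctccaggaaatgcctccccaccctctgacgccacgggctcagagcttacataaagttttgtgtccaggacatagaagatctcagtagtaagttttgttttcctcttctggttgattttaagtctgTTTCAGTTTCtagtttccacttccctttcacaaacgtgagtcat
Oas1a: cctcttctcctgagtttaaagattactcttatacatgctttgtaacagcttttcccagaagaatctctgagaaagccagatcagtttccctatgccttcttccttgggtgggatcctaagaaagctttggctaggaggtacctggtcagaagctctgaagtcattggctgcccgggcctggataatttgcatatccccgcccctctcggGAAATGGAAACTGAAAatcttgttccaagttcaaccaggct
Rsad2: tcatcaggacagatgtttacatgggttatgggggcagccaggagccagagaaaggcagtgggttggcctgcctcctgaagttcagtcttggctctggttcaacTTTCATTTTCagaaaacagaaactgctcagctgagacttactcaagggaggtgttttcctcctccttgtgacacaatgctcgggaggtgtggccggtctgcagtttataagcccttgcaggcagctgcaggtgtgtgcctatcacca
Mx1: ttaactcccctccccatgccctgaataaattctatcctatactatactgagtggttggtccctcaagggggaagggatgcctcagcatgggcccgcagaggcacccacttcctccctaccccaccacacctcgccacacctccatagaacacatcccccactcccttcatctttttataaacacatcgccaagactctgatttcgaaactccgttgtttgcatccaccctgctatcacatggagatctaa

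The letters occurred in 4 of these 5 promoters, against 992 of 27457 promoters in the whole RefSeq table, or 3.61%. The match lay 69 to 60 bases before the start in Irf7, 44 to 35 bases before it in Ifit3 and 147 to 138 bases before it in Rsad2. Oas1a held a pair of overlapping matches, 41 to 32 and 35 to 26 bases before its start. The window of Mx1 held none. Among 78 other interferon-stimulated genes listed for comparison, 62 had a promoter in the table and 33 of those held the letters, or 53.2%. Among macrophage and monocyte markers, 2 of 17 matched promoters held them, or 11.8%. With a longer core, in which the second GAAA is followed by C, the counts were 3 of the 5 members and 0.787% of the table. A match of letters is a description and not evidence of binding.

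The libraries held 15259502, 16454903 and 16175049 counts in ISO replicates 1 to 3 and 14880391, 17299589 and 16776064 counts in saline replicates 1 to 3. Levels are CPM, counts brought to a common library size, after scaling by trimmed means of M values (TMM), and 3 reads corresponded to 0.175 to 0.204 CPM. CPM are not divided by gene length, so levels are compared between libraries and not between genes. Differences were tested with the quasi-likelihood test of edgeR over all 13766 genes that passed its filter on low counts, and a gene was called at a Benjamini-Hochberg adjusted p under 0.05. On the first principal component ISO replicate 3 stood farthest from saline at 49.1, against 28.8 and 7.56 in ISO replicates 1 and 2 and −31.2 to −25.9 in saline. ISO replicate 1 stood apart in atrial RNA, with 1128 counts of the atrial light chain gene Myl7 against 17 and 0 in ISO replicates 2 and 3 and 9 to 25 in saline. As a check of the tissue label, the 12 cardiomyocyte markers in the table summed to 40665 to 57749 CPM in ISO and 60590.3 to 74596 CPM in saline.

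None of the 9 genes was called different between ISO and saline hearts. All 9 passed the filter, and edgeR called 0 higher and 0 lower, where 1.47% of all tested genes were called higher, 1.5% lower and 2.97% either way. At an unadjusted p under 0.05 edgeR, DESeq2 and voom each gave 0 of the 9, whereas edgeR gave 22.9% of all tested genes. The rule in the series description, an unadjusted p under 0.05 with a log2 fold change beyond 0.5 in size, likewise took 0 of the 9 when applied to the edgeR values, against 8.67% of tested genes higher and 4.5% lower. The ranges of the groups overlapped for all 9, while every ISO library lay above every saline library in 14.1% of tested genes and below in 14.6%. The log2 fold change of ISO over saline was above 0 for 7 genes and below 0 for 2, where 52.3% of tested genes were above 0, with a median of 0.27 beside 0.02 over all tested genes. Without ISO replicate 3 the median of the 9 was −0.17 and 4 were above 0, and without saline replicate 1 it was 0.03 and 6 were above 0. Summed over the 9 genes, the level was 222, 227 and 409 CPM in ISO replicates 1 to 3 and 159, 264 and 297 CPM in saline replicates 1 to 3. The highest library was thus an ISO library and the lowest a saline library, while the other ISO libraries lay below the other saline libraries.

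**Figure D1:**
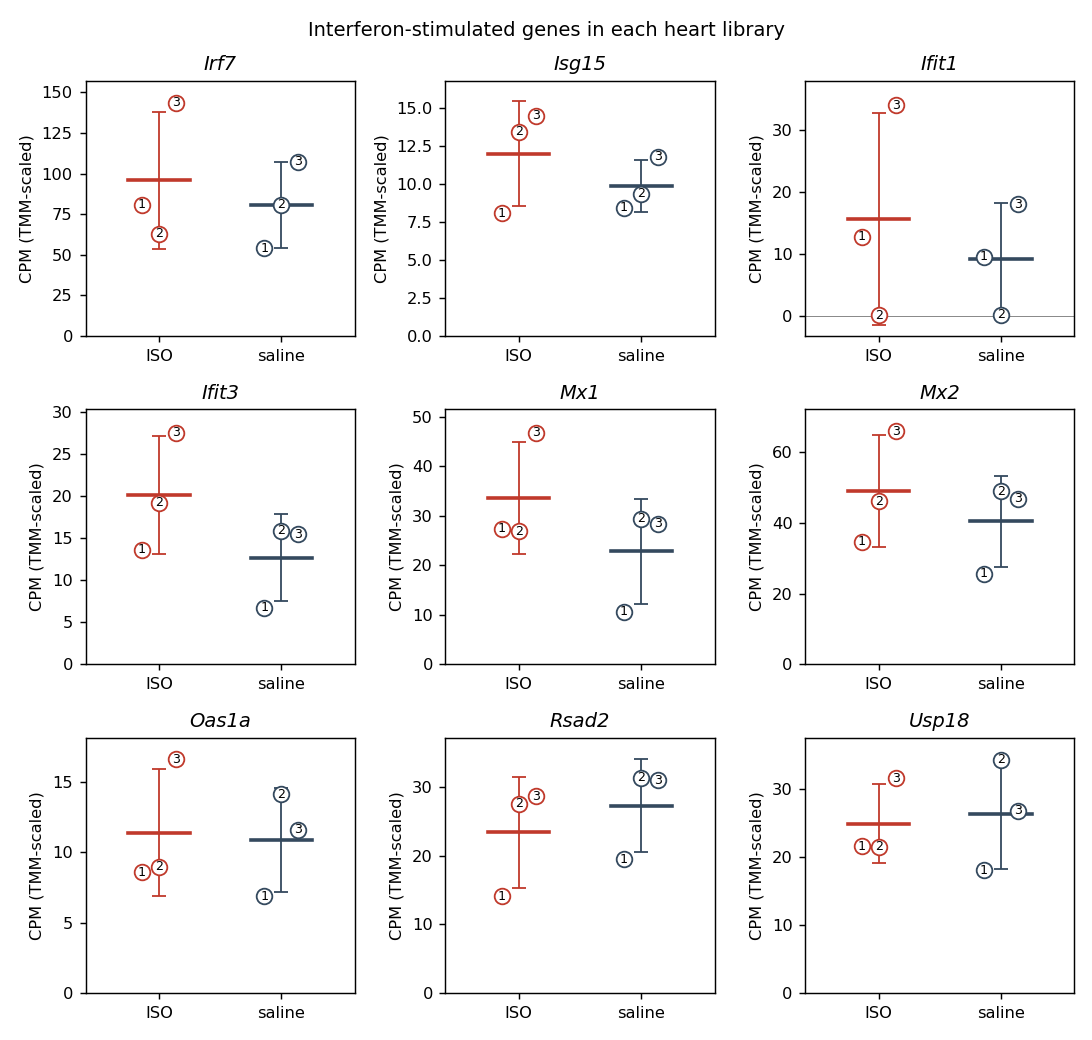
TMM-scaled CPM of each of the 9 genes in the 3 ISO libraries (left, red) and the 3 saline libraries (right, blue). Numbered circles are the replicates, thick lines the group means and thin bars 1 SD (n = 3). ISO replicate 3 is the highest ISO library in all 9 panels, saline replicate 1 is the lowest saline library in 8, and Ifit1 is near 0 in replicate 2 of both groups.

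Irf7, the transcription factor that amplifies the interferon response, stood at 80.7, 63.0 and 144 CPM in ISO replicates 1 to 3 and at 54.0, 80.97 and 107 CPM in saline replicates 1 to 3. ISO replicate 3 lay above the saline range, and ISO replicates 1 and 2 lay inside it. Irf7 averaged 95.8 ± 42.4 CPM in ISO against 80.8 ± 26.7 CPM in saline (SD, n = 3 each), with a fitted change of 0.25 on the log2 scale (SE 0.33, edgeR adjusted p = 0.703). The 95% interval of that change ran from −0.51 to 1.00. Without ISO replicate 3 the change was −0.17, so its direction rested on that library.

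Isg15 encodes a ubiquitin-like protein that is attached to other proteins during an interferon response. It stood at 8.08, 13.5 and 14.5 CPM in ISO replicates 1 to 3 and at 8.45, 9.38 and 11.8 CPM in saline replicates 1 to 3. ISO replicates 2 and 3 lay above every saline library, and ISO replicate 1 lay below every one. Its log2 fold change was 0.28 (SE 0.25, edgeR adjusted p = 0.534), with a 95% interval from −0.28 to 0.85. Without ISO replicate 1 it was 0.50 (SE 0.20), at an unadjusted edgeR p of 0.0414 and an adjusted p of 0.282. It was 0.13 without ISO replicate 3 and 0.18 without saline replicate 1.

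Usp18 encodes the protease that removes ISG15 from proteins and that also dampens signalling at IFNAR2. It stood at 21.5, 21.5 and 31.5 CPM in ISO replicates 1 to 3 and at 18.0, 34.3 and 26.8 CPM in saline replicates 1 to 3. All 3 ISO libraries fell inside the saline range. Its log2 fold change was −0.09 (SE 0.25, edgeR adjusted p = 0.874), with a 95% interval from −0.65 to 0.48, and without TMM scaling it was 0.04.

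Ifit1 and Ifit3 encode proteins with tetratricopeptide repeats that bind viral RNA or the proteins that do. Ifit1 was nearly absent from 1 animal of each group. It had 204, 1 and 583 counts in ISO replicates 1 to 3 and 140, 2 and 285 counts in saline replicates 1 to 3. Scaled, these were 12.8, 0.0624 and 34.0 CPM in ISO and 9.53, 0.125 and 18.0 CPM in saline. Replicate 2 of both groups was thus under the 3 counts taken as the floor, while the other 4 libraries had at least 140 counts. The fitted log2 fold change of 0.76 had an SE of 1.35 (edgeR adjusted p = 0.781) and a 95% interval from −2.32 to 3.85, and it was −0.51 without ISO replicate 3.

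The low count of Ifit1 in replicate 2 was not seen in the other genes beside it on chromosome 1. In RefSeq the protein-coding genes run Ifit2, Ifit3, Ifit1bl, Ifit1 and Slc16a12, and the span of Ifit1bl overlaps that of Ifit1, so reads of this pair are uncertain if counting dropped or split them. Counts of Ifit1bl, a gene chosen after seeing its values, were 48, 42 and 54 in ISO replicates 1 to 3 and 38, 73 and 49 in saline replicates 1 to 3. Ifit2, of the same family, had 603, 802 and 1077 counts in ISO and 480, 805 and 862 counts in saline. Slc16a12, which encodes a transporter and was also chosen after seeing its values, had 86, 88 and 121 counts in ISO and 50, 114 and 113 counts in saline. None of these 3 genes, nor Ifit3, fell to the floor in replicate 2. Of 10549 genes with at least 50 counts in each of the other 4 libraries, 2 had under 5% of the lowest of those counts in replicate 2 of both groups, namely Ifit1 and AABR07000382.1. The second of these, a gene model without a name that was also chosen after seeing its values, had 89, 1 and 78 counts in ISO and 79, 1 and 53 counts in saline. Whether these 2 animals differ from the rest at the Ifit1 locus was not tested.

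Ifit3 stood at 13.7, 19.2 and 27.5 CPM in ISO replicates 1 to 3 and at 6.74, 15.9 and 15.5 CPM in saline replicates 1 to 3. ISO replicates 2 and 3 lay above the saline range and ISO replicate 1 inside it. Its log2 fold change, 0.66 (SE 0.35, edgeR adjusted p = 0.298), had a 95% interval from −0.14 to 1.47. Its unadjusted edgeR p was the smallest of the 9 genes, at 0.0948. The direction held in all 6 fits that left out 1 library, at 0.36 to 0.87, as it also did for Isg15 and Mx1. For Mx2 the change was 0.00 without ISO replicate 3. Without ISO replicate 1 the change of Ifit3 was 0.87 (SE 0.35), at an unadjusted edgeR p of 0.0413 and an adjusted p of 0.282.

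Mx1 and Mx2 encode dynamin-like GTPases that block virus replication, in the rat mainly in the nucleus for Mx1 and in the cytoplasm for Mx2. Mx1 stood at 27.4, 26.9 and 46.8 CPM in ISO replicates 1 to 3 and at 10.6, 29.5 and 28.4 CPM in saline replicates 1 to 3. ISO replicates 1 and 2 lay just under saline replicates 2 and 3, and the group means differed through ISO replicate 3 and saline replicate 1. The log2 fold change was 0.56 (SE 0.37, edgeR adjusted p = 0.406), and it was 0.25 without ISO replicate 3 and 0.21 without saline replicate 1.

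Mx2 stood at 34.6, 46.1 and 65.8 CPM in ISO replicates 1 to 3 and at 25.6, 48.8 and 46.7 CPM in saline replicates 1 to 3. Its order of libraries matched that of Mx1 at both ends, with ISO replicate 3 highest and saline replicate 1 lowest. The log2 fold change was 0.27 (SE 0.29, edgeR adjusted p = 0.615) and shrank to 0.00 without ISO replicate 3 and 0.03 without saline replicate 1.

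Oas1a encodes an enzyme that makes short oligoadenylates, which activate the ribonuclease RNase L. It stood at 8.58, 8.98 and 16.6 CPM in ISO replicates 1 to 3 and at 6.88, 14.1 and 11.6 CPM in saline replicates 1 to 3. ISO replicates 1 and 2 fell inside the saline range and replicate 3 above it. The log2 fold change, 0.07 (SE 0.33, edgeR adjusted p = 0.929), became −0.31 without ISO replicate 3 and −0.18 without saline replicate 1. Oas1a belongs to a cluster of closely related genes, so its counts are uncertain where reads could be split between copies.

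Rsad2 encodes viperin, an enzyme that makes a chain-terminating nucleotide against viral polymerases. It stood at 14.1, 27.6 and 28.6 CPM in ISO replicates 1 to 3 and at 19.5, 31.4 and 31.0 CPM in saline replicates 1 to 3. Replicate 1 was the lowest library of both groups, and no ISO library reached saline replicates 2 and 3. Its log2 fold change, −0.22 (SE 0.28, edgeR adjusted p = 0.69), was the lowest of the 9. It was 0.03 without ISO replicate 1.

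The intervals were wide. Leaving Ifit1 aside, the upper bounds of the 95% intervals lay between 0.43 for Rsad2 and 1.47 for Ifit3, and the lower bounds between −0.87 for Rsad2 and −0.14 for Ifit3. A rise of 1 on the log2 scale was inside the interval of Irf7, Ifit3 and Mx1 and outside that of Isg15, Mx2, Oas1a, Rsad2 and Usp18.

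**Figure D2:**
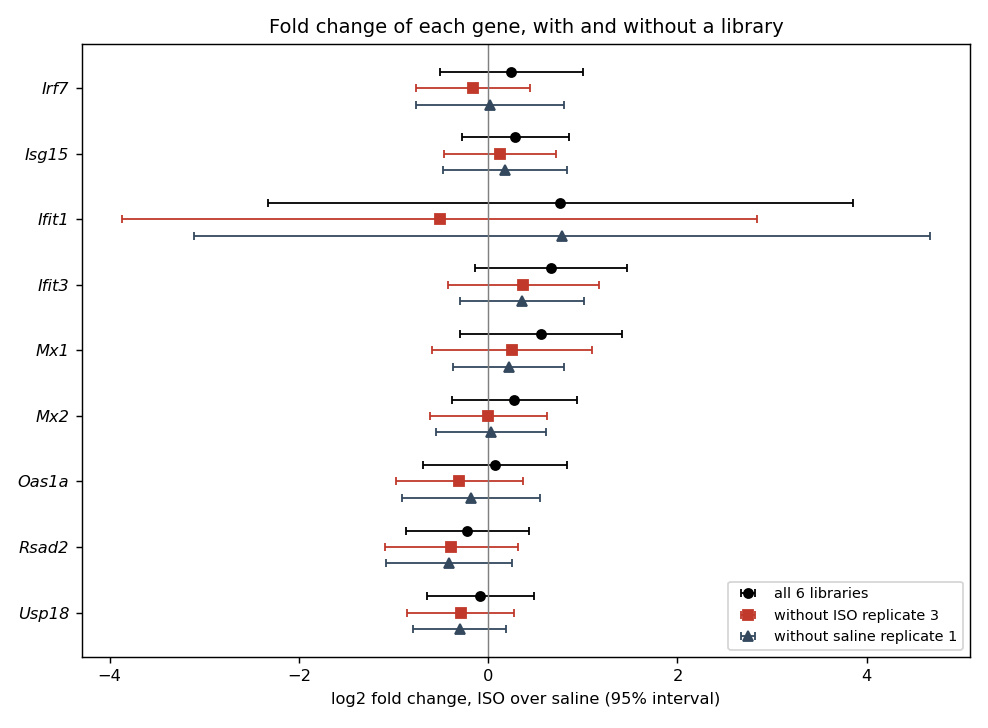
Log2 fold change of ISO over saline for each gene with its 95% interval, from edgeR with all 6 libraries (black circles), without ISO replicate 3 (red squares) and without saline replicate 1 (blue triangles). All intervals include 0, and leaving out ISO replicate 3 shifts every gene to the left, Irf7, Ifit1 and Oas1a across 0. ISO replicate 3 was the highest ISO library in all 9 genes, so the direction of this shift was fixed in advance.

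The 9 genes varied widely between animals of the same group. Their median coefficient of variation (CV, the SD over the mean of 3 libraries) was 34.6% in ISO and 33.0% in saline. The median over all tested genes was 14.9% in ISO and 13.0% in saline, and over the 7200 tested genes with a mean of 10 to 100 CPM it was 11.3% and 10.2%. The CV of Irf7 was 44.2% in ISO and 33.0% in saline, and that of Mx1 was 33.6% in ISO and 46.4% in saline. Each group's median leaned on 1 library. Without ISO replicate 3 it was 19.8% in ISO, beside 11.1% over all genes tested in that fit. Without saline replicate 1 it was 14.04% in saline, beside 11.2%. The lowest CV in ISO was that of Usp18 at 23.3%, above 70.2% of tested genes. The lowest in saline was that of Isg15 at 17.6%, above 65.6% of tested genes. A CV over 3 animals is imprecise, and these values are given without a test.

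**Figure D3:**
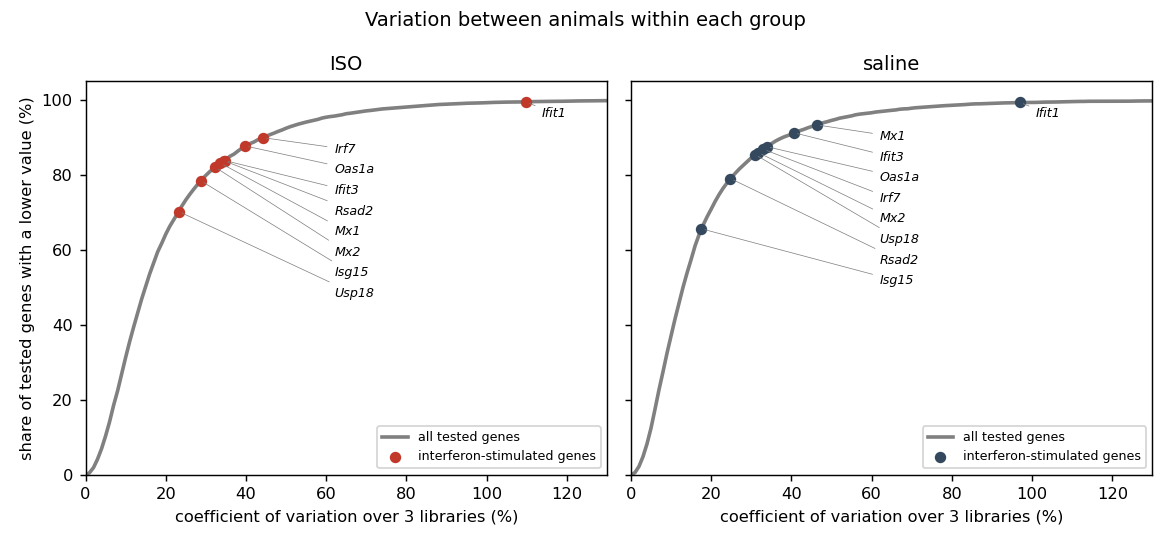
Share of tested genes with a lower coefficient of variation (%, vertical) against the coefficient of variation over 3 libraries (%, horizontal), for ISO (left) and saline (right). The grey line covers all tested genes and the points are the 9 interferon-stimulated genes, which lie between 70.2% and 99.4% in ISO and between 65.6% and 99.3% in saline.

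The same animals stood at 1 end of their group in nearly all of the 9 genes. ISO replicate 3 was the highest ISO library in 9 of 9 genes and saline replicate 1 the lowest saline library in 8 of 9, Ifit1 being the exception. Over all tested genes these shares were 38.8% and 33.2%. Both conditions held together in 8 of 9 genes, against 17.4% of all tested genes. The rest of the order varied, since the lowest ISO library was replicate 1 in 5 genes and replicate 2 in 4, and the highest saline library was replicate 2 in 6 and replicate 3 in 3. Over all 6 libraries, ISO replicate 3 was highest in 7 genes and saline replicate 2 in Rsad2 and Usp18, and saline replicate 1 was lowest in 6. The other interferon-stimulated genes showed the same extremes, with both conditions met in 52 of 68 tested members, or 76.5%. They included Stat2 and Irf9, whose proteins act at the response element. Genes of 1 animal share their library, so these counts describe 6 animals and not independent replicates of the order.

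Macrophage markers shared part of this pattern. Their summed level was 1123, 1027 and 2239 CPM in ISO replicates 1 to 3 and 507, 672 and 547 CPM in saline replicates 1 to 3, over 19 markers found in the table. ISO replicate 3 was the highest ISO library in 17 of 19 and saline replicate 1 the lowest saline library in 13, with both in 12, or 63.2%. Over all tested genes these 3 shares were 38.8%, 33.2% and 17.4%. Unlike the 9 genes, 12 of the 19 markers had every ISO library above every saline library, where 14.1% of all tested genes did. Of the 19, 5 were called higher, against 1.47% of all tested genes. The 5 included C1qa, a complement gene of tissue macrophages, at 1.15 (SE 0.14, edgeR adjusted p = 0.0138). Among endothelial markers ISO replicate 3 was the highest ISO library in 0 of 10, while saline replicate 1 was the lowest saline library in 7 of 10. Fibroblast markers were higher as well, with 4 called, against 1.47% of all tested genes. All 11 of 11 had their ISO libraries above their saline libraries, against 14.1% of all tested genes. The 11 summed to 11287, 10445 and 19922 CPM in ISO replicates 1 to 3. In saline replicates 1 to 3 they summed to 5360, 5850 and 5316 CPM, so ISO replicate 3 was the highest library here too. Markers of T and NK cells summed to 69.0, 57.1 and 114 CPM in ISO and 59.0, 68.5 and 66.4 CPM in saline. Much of that sum was Cd4, which rat macrophages also express, at 40.5, 35.4 and 76.1 CPM in ISO and 23.5, 28.8 and 29.9 CPM in saline. Of the 12 tested markers of this list 0 were called and 8 were below 0, with a median log2 fold change of −0.35. Markers of plasmacytoid dendritic cells, the specialised producers of type I interferon, summed to 63.8, 64.5 and 75.1 CPM in ISO and 56.1, 52.9 and 59.8 CPM in saline, and 4 of 10 passed the filter with 0 called. Most of that sum was Tcf4 and Irf8, which other cells express as well. Siglech, a defining marker of those cells in rodents that was named after seeing its values, had 1, 0 and 8 counts in ISO and none in saline. The part of any of these cells in the levels of the 9 genes was not tested.

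**Figure D4:**
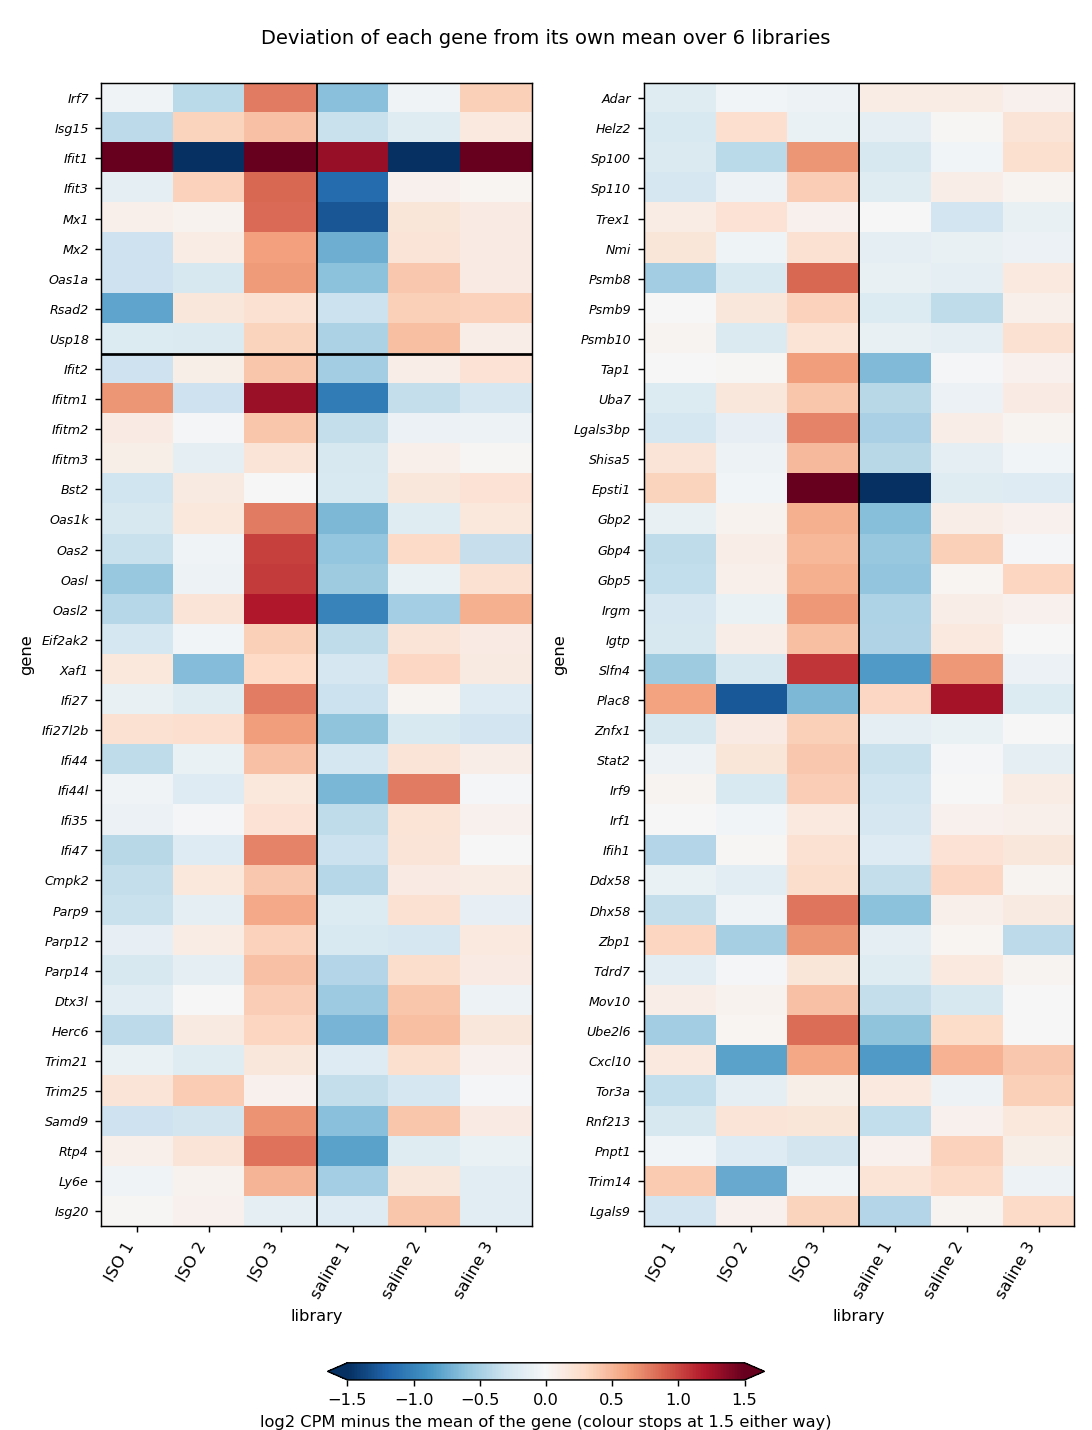
Deviation of log2 CPM from each gene's own mean over the 6 libraries, for the 9 genes (above the thick line) and the other tested interferon-stimulated genes, apart from 1 not reported here, with ISO libraries left of saline libraries. Red is above and blue below the mean, and ISO replicate 3 is mostly red and saline replicate 1 mostly blue in both blocks.

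Other interferon-stimulated genes held a single call. Of 78 listed, 70 were in the table and 68 passed the filter. Of those 68, edgeR called 1 higher, 0 lower and 67 not, where 1.47% of all tested genes were called higher and 1.5% lower. In 8 of the 68 every ISO library lay above every saline library and in 2 below, against 14.1% and 14.6% of all tested genes. The list's median log2 fold change was 0.15 beside 0.02 over all tested genes. The called gene was Ifi27l2b, a member of the Ifi27 family of mitochondrial proteins. It stood at 39.6, 40.3 and 52.1 CPM in ISO replicates 1 to 3 and at 22.1, 28.8 and 27.6 CPM in saline replicates 1 to 3, with a change of 0.75 on the log2 scale (SE 0.15, edgeR adjusted p = 0.0435). Its groups did not overlap, but its call was lost in 5 of the 6 fits that left out 1 library, with edgeR adjusted p of 0.0732 to 0.155, and held without ISO replicate 2. Ifitm1, which encodes a membrane protein that blocks virus entry, stood at 30.9, 15.7 and 48.0 CPM in ISO and 9.33, 15.2 and 16.4 CPM in saline. It missed the threshold at 1.21 (SE 0.38, edgeR adjusted p = 0.113), but DESeq2 called it (adjusted p = 0.0123), as did edgeR without ISO replicate 2 (adjusted p = 0.0293). DESeq2 called 2 genes of this list higher and 0 lower, where it called 752 higher and 653 lower of all 13766 genes. Trim25, a ubiquitin ligase that acts on the sensor RIG-I, missed the edgeR threshold at 0.42 (SE 0.13, edgeR adjusted p = 0.107). Ifi27, which had a high CPM within the list, stood at 207 ± 81.6 CPM in ISO against 159 ± 20.7 CPM in saline. Without ISO replicate 3 the list's median was −0.07 and without saline replicate 1 it was 0.01.

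The filter left out Oas1i and Oas3, relatives of Oas1a that were named after their values were seen. Oas1i had 6, 6 and 50 counts in ISO replicates 1 to 3 and 0, 0 and 1 counts in saline replicates 1 to 3. Oas3 had 8, 9 and 56 counts in ISO and 6, 17 and 10 counts in saline. ISO replicate 3 held most of the reads of both. Without the filter edgeR called Oas1i at an adjusted p of 0.0464.

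Transcripts of the interferons themselves were at or near the detection floor. Of 11 interferon genes listed, 10 were in the table, 0 passed the filter and 7 had no reads in any library, among them Ifnb1, the gene of interferon beta. Ifng, the gene of interferon gamma, had 1, 4 and 3 counts in ISO replicates 1 to 3 and 0, 5 and 1 counts in saline replicates 1 to 3. At this depth a difference in such transcripts was not detectable, and a count of 0 does not show that they were absent.

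The receptors and their signalling chain held no call. All 20 listed genes were tested and edgeR called 0, where 2.97% of all tested genes were called. The list's median log2 fold change was 0.05. At an unadjusted edgeR p under 0.05 there were 3 of 20, where 22.9% of all tested genes were. DESeq2 made 1 call in this list, where it called 752 higher and 653 lower of all 13766 genes. The receptor genes Ifnar1 and Ifnar2 stood at 74.4 ± 2.04 and 20.1 ± 2.39 CPM in ISO, against 72.0 ± 7.19 and 21.0 ± 3.22 CPM in saline (SD, n = 3). Ifnar1 gave 0.05 (SE 0.11) and Ifnar2 −0.07 (SE 0.16). Stat2 stood at 62.7 ± 10.3 CPM in ISO against 49.3 ± 5.35 CPM in saline, at 0.35 (SE 0.15, edgeR adjusted p = 0.205). Ifngr1, a chain of the interferon gamma receptor, was the gene DESeq2 called, and in edgeR it gave 0.44 (SE 0.11, adjusted p = 0.0757). Ptpn11, a phosphatase of growth factor and cytokine signalling, gave −0.38 (SE 0.15, edgeR adjusted p = 0.189), and Jak1 gave −0.13 (SE 0.10).

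Among the other IRF genes, edgeR called 0 of 8, where 2.97% of all tested genes were called. The list's median log2 fold change was 0.16. At an unadjusted edgeR p under 0.05 there were 2 of 8, where 22.9% of all tested genes were. Irf3, which starts interferon transcription when a sensor is triggered, gave 0.19 (SE 0.12, edgeR adjusted p = 0.355). Irf9 gave 0.13 (SE 0.17, edgeR adjusted p = 0.703) and Irf1 gave 0.07 (SE 0.12). Irf3, Irf8 and Irf5 had every ISO library above every saline library, or 3 of 8, where 14.1% of all tested genes did. Irf8 and Irf5 are both abundant in myeloid cells. Irf8 stood at 24.8 ± 5.06 CPM in ISO against 16.3 ± 1.23 CPM in saline, at 0.60 (SE 0.16, edgeR adjusted p = 0.0816). Irf5 stood at 12.6 ± 5.14 CPM in ISO against 6.69 ± 1.32 CPM in saline, at 0.92 (SE 0.30, edgeR adjusted p = 0.121). DESeq2 called both, at adjusted p of 0.0288 and 0.0422, where it called 752 of all 13766 genes higher.

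Nucleic acid sensors and their adaptors held 1 edgeR call among 21 tested genes, where 2.97% of all tested genes were called. In 8 of the 21 every ISO library lay above every saline library and in 2 below, against 14.1% and 14.6% of all tested genes. The list's median log2 fold change was 0.32, and it was 0.11 without ISO replicate 3. At an unadjusted edgeR p under 0.05, 7 were higher and 2 lower, where 12% of all tested genes were higher and 22.9% either way. The edgeR call was Unc93b1, which carries the endosomal Toll-like receptors to their compartment. It stood at 36.1, 37.0 and 85.5 CPM in ISO replicates 1 to 3 and at 19.0, 18.4 and 18.9 CPM in saline replicates 1 to 3, with a change of 1.50 on the log2 scale (SE 0.32, edgeR adjusted p = 0.0495). Every ISO library was above every saline library, and without ISO replicate 3 the change was 0.97 and still called (edgeR adjusted p = 0.0118). The call was lost without ISO replicate 1 or any 1 saline library, with edgeR adjusted p of 0.0708 to 0.177. The receptors Tlr7, Tlr8 and Tlr9, chosen after seeing their values, gave 1.28, 1.64 and 1.97. They were not called by edgeR (adjusted p of 0.088, 0.0951 and 0.101), whereas DESeq2 called all 3. Of this list DESeq2 called 6 genes higher and 2 lower, where it called 752 higher and 653 lower of all 13766 genes. The summed macrophage and fibroblast markers given above were also highest in ISO replicate 3, and their part in these values was not tested. Mavs is the mitochondrial adaptor of the RNA sensors, and Traf3 is a ubiquitin ligase of the same chain. Both had every ISO library below every saline library, as 14.6% of all tested genes did. Mavs gave −0.47 (SE 0.12, edgeR adjusted p = 0.0758), Traf3 gave −0.57 (SE 0.13, edgeR adjusted p = 0.053), and DESeq2 called both lower. Tbk1, the kinase that acts on IRF3, gave 0.13 (SE 0.11).

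The enzymes that attach ISG15 held 0 calls among 4 tested members, where 2.97% of all tested genes were called. The list's median log2 fold change was 0.27. That median was −0.025 without ISO replicate 3 and 0.099 without saline replicate 1. Uba7, the activating enzyme, gave 0.25 (SE 0.20), and Ube2l6, the conjugating enzyme, gave 0.30 (SE 0.36). Herc6, a ligase of the pathway in rodents, stood at 28.1 ± 6.77 CPM in ISO against 28.1 ± 10.5 CPM in saline. Trim25, listed here too, was the 1 of 4 members at an unadjusted edgeR p under 0.05, where 22.9% of all tested genes were.

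**Figure D5:**
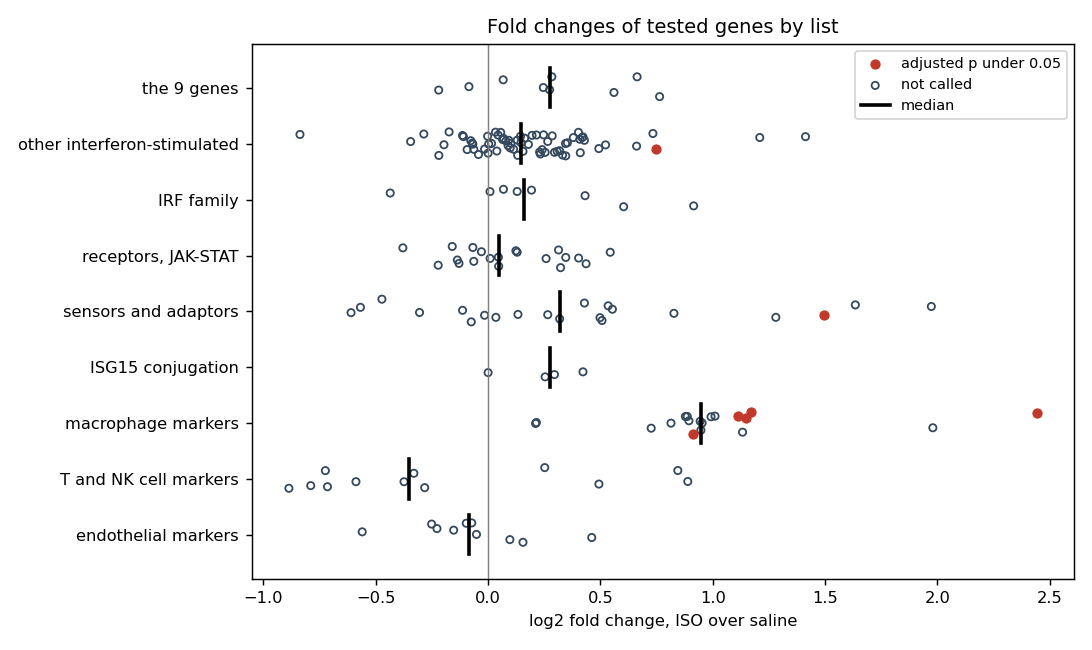
Log2 fold change of ISO over saline for each tested gene (points), by list, with the list's median (black bar). Filled red points were called by edgeR at an adjusted p under 0.05; the 9 genes have a median of 0.27 and hold 0 such points, and the macrophage markers have a median of 0.95 and hold 5.

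Genes outside the lists that most resembled the mean profile of the 9 were found by the smallest mean absolute difference in deviation from the gene's own mean log2 CPM, over the 6 libraries. The nearest were Cnn2, AABR07002774.4, Cmtm7, Zdhhc4 and Prim2, at differences of 0.12 to 0.15, while Irf7 itself lay at 0.10 and Ifit1 at 2.53. Cnn2, an actin-binding calponin gene, stood at 9.71, 7.67 and 16.8 CPM in ISO replicates 1 to 3 and at 9.19, 8.94 and 13.1 CPM in saline replicates 1 to 3. Ifit1 weighed on that mean, and once it was left out, a choice made after seeing the data, none of these 5 genes was among the nearest 5. They were then Atf3, Gbp6, Pask, Gmnn and Gstt2, at 0.08 to 0.10. Gbp6, an interferon-induced guanylate-binding protein gene that was on no list, stood at 7.64, 7.80 and 12.5 CPM in ISO and 4.49, 9.50 and 9.47 CPM in saline.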

How the data were processed

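Per the labels and the series description, heart RNA of 3 ISO and 3 saline rats was sequenced as paired reads, which the authors aligned with HISAT2 and assigned to genes with featureCounts. What they deposited are raw whole-number counts per gene. The sources used here give no tool version, annotation, rat build or strand setting, and the submitters' processing notes list mm10, a mouse build. Reads of overlapping or antisense genes therefore cannot be separated. Of 33889 rows, 1006 without a gene name held 0.981% to 1.32% of a library's counts and were left out. Each library came from a separate rat, and no pair of libraries agreed within sampling noise.

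The test was edgeR 4.0.16 (R 4.3.3) with TMM scaling, its default filter, the quasi-likelihood F test and Benjamini-Hochberg adjustment over 13766 genes, tried first on simulated data. The SE is the log2 fold change over the square root of F. Heat map and profile values are log2 CPM with a prior count of 2. Alternatives included DESeq2 1.42.0 and voom from limma 3.58.1. The 9 members, the lists and the tests were chosen with earlier results of these data known. Genes named are the 9 members, 6 signalling genes (1 of them is not reported here), the 3 with the smallest p and the 2 with the highest level in each pathway list, up to 2 called markers per cell type and the 5 nearest profiles. Any other is said to be chosen after seeing its values, except Ifit2, Myl7, Cd4, Tcf4, Ifnb1 and Ifng, which also fall outside this rule. Totals of 14880391 to 17299589 counts set the precision, and floors cover counting error only.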

Additional observations from a re-analysis of the deposited data

How the results depend on the processing

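The 9 genes kept 0 calls in every one of 17 alternatives. The lowest edgeR adjusted p was 0.14, for Ifit3 in the fit with replicate number as a block. In 1 of the alternatives, the cut at an adjusted p under 0.01, the main fit was reused, so no call could be added. The rule of the series description also reused the p values of the main fit. Without scaling beyond library size Usp18 turned to 0.038, genes called lower fell to 123 and the receptor list's median was 0.15, while the median of all genes was 0.13, against 0.02 with TMM. Without the filter, 322 genes and 2 other interferon-stimulated genes were called higher. DESeq2 called 752 genes higher and 653 lower of the 13766 that passed the filter. The lists held 2 other interferon-stimulated genes, 1 receptor gene, 6 sensor genes and 2 IRF genes called higher and 2 sensor genes called lower. Voom called 0 in those lists. At an adjusted p under 0.01, 4 genes were higher and 7 lower, with 0 in the lists. By the rule of the series description, 1193 were higher and 619 lower, with 4 other interferon-stimulated genes, 7 sensor genes and 2 IRF genes higher and 1 sensor gene lower. Shared replicate numbers did not pair the rats (correlations of −0.10 to 0.09, 2 of 6 libraries nearest their own number). With the replicate block 15 genes were higher and 13 lower, with 0 in the lists.

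Leaving out 1 library at a time gave 6 to 492 genes higher and 5 to 346 lower, 0 to 2 other interferon-stimulated genes, 0 to 1 receptor gene in either direction and 0 to 1 sensor gene higher and 0 to 2 lower. Of the 9 genes, 0 to 2 had groups that did not overlap, Isg15 and Ifit3 without ISO replicate 1, where 34.6% of all tested genes did not overlap, and Rsad2 without saline replicate 1, where 38% did not. Log2 fold changes ran from −0.17 to 0.50 for Irf7, 0.13 to 0.50 for Isg15, −0.51 to 1.70 for Ifit1, −0.31 to 0.30 for Oas1a, −0.42 to 0.034 for Rsad2 and −0.30 to 0.15 for Usp18. The median of the 9 ran from −0.17 to 0.46, lowest without ISO replicate 3. Their median CV ran from 19.8% to 44.0% in ISO and from 14.04% to 44.1% in saline. With Ifit1 left out, 0 of the 5 nearest profiles were shared. The cause of these shifts was not tested. With 3 rats a group, changes inside the intervals given cannot be told from 0.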
